A study of Homo sapiens with 4 samples.

Results

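A set of 10 heat shock genes was followed on 4 Affymetrix arrays of MDA-MB-231Br, a breast cancer cell line derived from MDA-MB-231, the name used in the sample titles. The genes were HSPA1A, HSPA1B, HSPA6, HSPA1L, BAG3, HSPB1, HSPH1, HSPA4, STIP1 and HSPD1, which are 10 of the 14884 genes named by the platform annotation. They were read by 22 of its 16098 named probe sets, and all 10 passed the filter on low values. The genes were picked with the shYTHDF3 against shControl differences of these same arrays already known. Their differences are therefore given as a description, and no test of them is reported. The shYTHDF3 group held 2 arrays of cells carrying a short hairpin RNA against YTHDF3, a cytoplasmic reader of N6-methyladenosine in RNA, and the shControl group held 2 arrays of cells carrying a control hairpin. Both groups received their hairpin by lentivirus and were selected with puromycin, and both were grown in DMEM with serum. Heat or another deliberate stress is not mentioned in the labels for either group. The labels give 1 hairpin name per group and do not say whether the 2 samples of a group were separate cultures, so the spread between them may be technical. The level of YTHDF3 itself was not analysed here, which leaves the knockdown labels without a check.

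Heat shock proteins are chaperones that bind unfolded proteins and help them to fold, stay soluble or reach degradation. When unfolded proteins accumulate, heat shock factor 1 (HSF1) forms trimers, binds inverted repeats of the unit GAA in promoters and raises the transcription of a set of chaperones. Some of these genes are nearly silent until such stress occurs, while others supply unstressed cells and are raised further by heat, and a last group is expressed with little response to heat. The strictly inducible class here was HSPA1A, HSPA1B and HSPA6. The class with basal expression and further induction was BAG3, HSPB1, HSPH1, STIP1 and HSPD1. The constitutive class was HSPA4 and HSPA1L, a testis-enriched relative of HSPA1A. The class names come from general knowledge of the genes. They are not borne out in full here, because HSPA1A/HSPA1B stood far above the array medians of 3.20 to 3.22 in both groups of cells with no stated stress.

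The promoters of the strictly inducible genes are shown because HSF1 acts through them. The second HSPD1 window is shown because, like that of HSPA6, it holds the exact 3-unit element defined below. HSPD1 was not lower, and the part of the element in the differences was not tested. The sequences are from RefSeq, build GRCh38.p14, 250 bases upstream of the annotated start, written 5′ to 3′ on the strand of the gene. They lie at chr6:31815293-31815542 (plus strand) for HSPA1A, chr6:31827488-31827737 (plus strand) for HSPA1B, chr1:161524290-161524539 (plus strand) for HSPA6 and chr2:197499841-197500090 (minus strand) for the second of 2 HSPD1 windows. Capitals mark exact matches to GAANNTTC or TTCNNGAA, in which 2 GAA units face opposite ways, including their overlap as the 3-unit element GAANNTTCNNGAA. Both strands were searched.
HSPA1A: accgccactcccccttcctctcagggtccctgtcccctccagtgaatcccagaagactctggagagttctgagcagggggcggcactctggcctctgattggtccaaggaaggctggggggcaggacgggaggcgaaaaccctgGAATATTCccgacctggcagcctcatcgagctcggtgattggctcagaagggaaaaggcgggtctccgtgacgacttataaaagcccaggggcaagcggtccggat
HSPA1B: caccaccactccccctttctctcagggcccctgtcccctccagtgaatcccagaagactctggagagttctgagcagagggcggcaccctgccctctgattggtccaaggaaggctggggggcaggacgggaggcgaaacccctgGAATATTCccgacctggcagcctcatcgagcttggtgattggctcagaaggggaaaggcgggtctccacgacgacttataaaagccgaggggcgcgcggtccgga
HSPA6: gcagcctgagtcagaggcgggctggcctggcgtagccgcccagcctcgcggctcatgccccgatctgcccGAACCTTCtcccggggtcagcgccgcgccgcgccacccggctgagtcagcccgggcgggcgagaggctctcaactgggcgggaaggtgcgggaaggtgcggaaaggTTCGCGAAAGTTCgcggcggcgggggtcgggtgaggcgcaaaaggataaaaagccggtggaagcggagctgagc
HSPD1: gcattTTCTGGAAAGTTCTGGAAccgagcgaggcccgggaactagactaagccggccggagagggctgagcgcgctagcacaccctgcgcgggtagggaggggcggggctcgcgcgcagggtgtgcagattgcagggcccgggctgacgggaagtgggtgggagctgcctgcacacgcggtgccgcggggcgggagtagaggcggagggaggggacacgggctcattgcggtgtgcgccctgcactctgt

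All 10 genes matched the RefSeq promoter table by symbol, with 12 windows because STIP1 and HSPD1 have 2 each. Motifs were counted in windows of 300 bases, 250 before and 50 after the start. The exact 3-unit element was present in the windows of HSPA6, from base -74 to -62, and of HSPD1, with 2 overlapping matches between -245 and -228. Of all 35116 promoter windows in the table, 0.49% held it. HSPA1A and HSPA1B each held 1 exact GAANNTTC match, starting at base -106 and -105, and with at most 1 mismatch it extended to a 3-unit match in both. GAANNTTC occurred in 6.77% of all windows, TTCNNGAA in 7.74%, and the 3-unit element with at most 1 mismatch in 6.24%. Aligned end to end, the windows of HSPA1A and HSPA1B had 277 identical bases and 22 mismatches, and both held 2 CCAAT boxes and a TATAAA box at the same spacing. CCAAT on either strand was found in 34.6% of all windows and TATAAA in 11.5%. HSPB1 held 1 GAANNTTC match at -182, and the second STIP1 window held TTCNNGAA just after the start. The windows of BAG3, HSPH1 and HSPA4 held none of these letters, which says nothing of elements elsewhere in those genes. HSPA1L is transcribed away from HSPA1A, and the windows of the 2 genes share 241 bases, so that the GAANNTTC match of HSPA1A is also the one of HSPA1L.

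**Figure D1:**
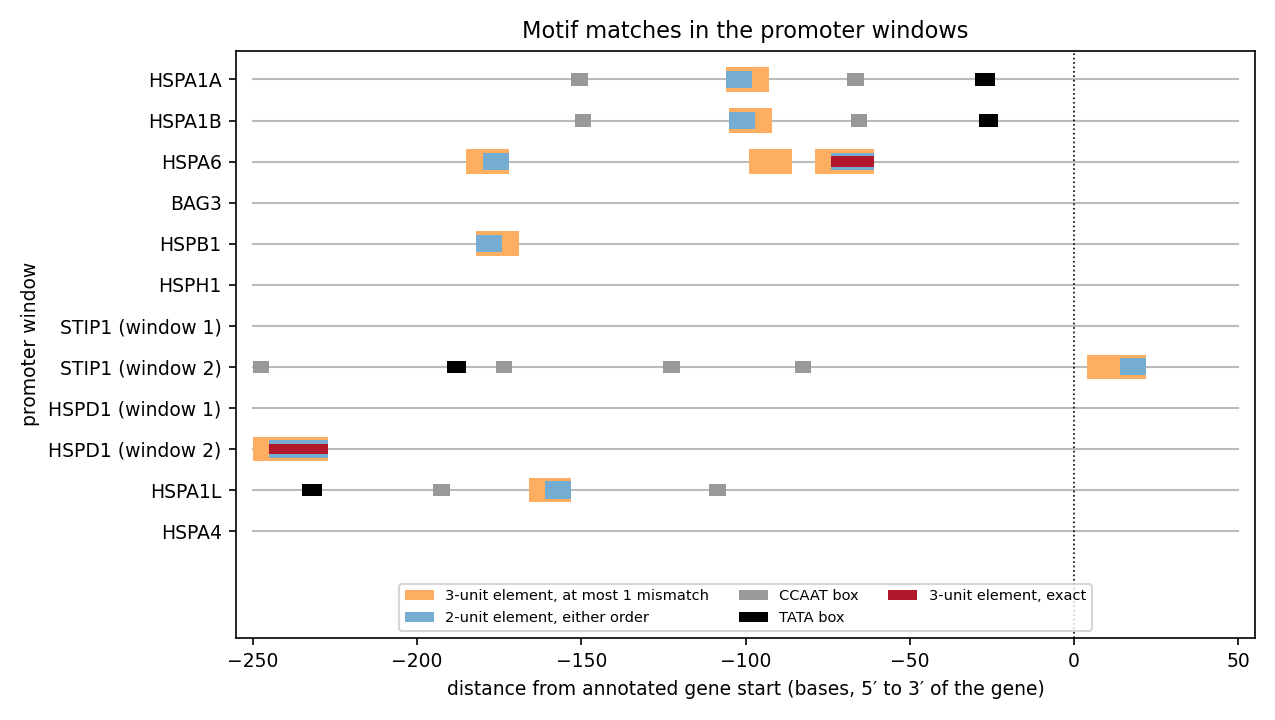
Matches to heat shock elements, CCAAT and TATAAA boxes in the 12 promoter windows of the 10 genes, plotted as distance in bases from the annotated gene start (dotted line). The exact 3-unit element appears in HSPA6 and in the second HSPD1 window, and BAG3, HSPH1, HSPA4 and the other windows of STIP1 and HSPD1 hold no match.

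The strictly inducible HSP70 genes were far lower in shYTHDF3 cells, BAG3 was lower too, and the other chaperones differed by much less. HSPA1A and HSPA1B, neighbouring genes on chromosome 6 that encode the main stress-induced cytosolic HSP70, are near-identical copies and were joined as 1 measurement, the mean of their 10 probe sets. Their log2 expression was 8.82 and 8.76 on the shYTHDF3 arrays, against 11.31 and 11.51 on the shControl arrays. The groups lay far apart, and the shYTHDF3 arrays differed from each other by less than the control arrays did. The means were 8.79 ± 0.04 in shYTHDF3 and 11.41 ± 0.14 in shControl cells (SD, n = 2 each), a log2 difference of -2.62 or 6.15-fold. Over the 4 ways of setting a shYTHDF3 array against a shControl array, the difference ran from -2.75 to -2.49. The arrays were made from bulk RNA, so fewer cells with the transcript and less transcript per cell cannot be told apart.

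All 10 probe sets of the 2 copies gave a similar picture. The 5 annotated to HSPA1A had log2 differences between -2.80 and -2.75, and 3 of the 5 held identical values. The 5 annotated to HSPA1B lay between -2.57 and -2.38, a range that did not meet that of HSPA1A. Folds ran from 5.21 to 6.98 over the 10. On the shYTHDF3 arrays single probe sets lay between 8.15 and 9.49, against 10.85 to 11.90 on the shControl arrays, with no overlap. Which copy each probe set reads cannot be told apart here, because the probe sequences were not used.

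**Figure D2:**
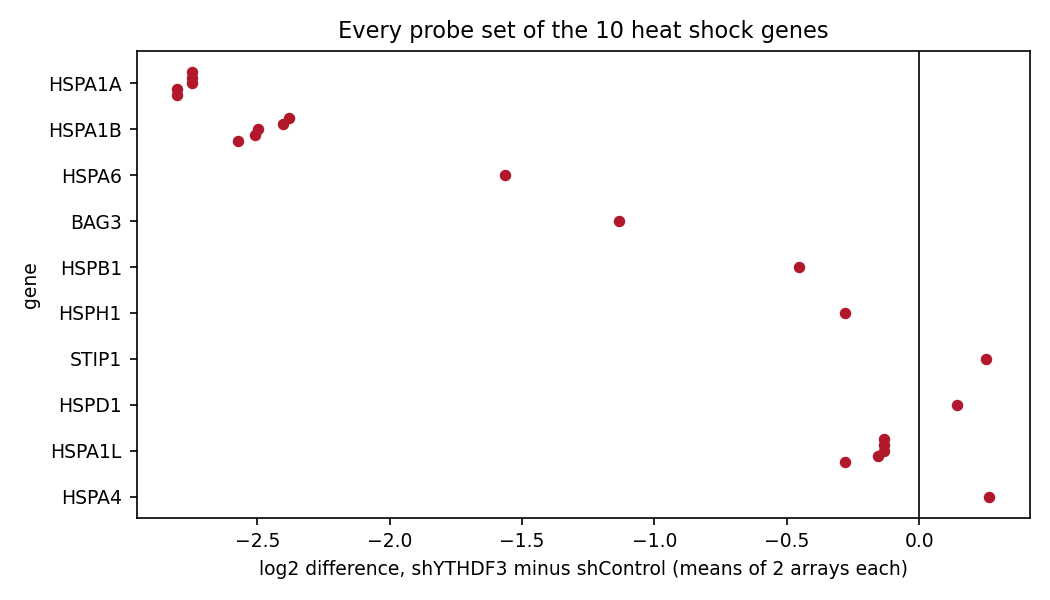
Log2 difference, shYTHDF3 minus shControl, for each of the 22 probe sets of the 10 heat shock genes (points; means of 2 arrays per group). The 10 probe sets of HSPA1A and HSPA1B lie between -2.80 and -2.38, HSPA6 and BAG3 follow, and the remaining genes lie between -0.45 and 0.26.

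HSPA6, an inducible HSP70 that is barely expressed without stress, came next. Its log2 expression was 3.48 and 3.86 on the shYTHDF3 arrays, against 5.14 and 5.33 on the shControl arrays. Both shYTHDF3 values were below both control values. The log2 difference was -1.57, or 2.96-fold. The shYTHDF3 values approached the array medians of 3.20 to 3.22, where weak signals are compressed, so this fold can be understated.

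BAG3 encodes a cochaperone that binds HSP70, releases its nucleotide and directs clients to autophagy. It stood at 6.70 and 6.78 in shYTHDF3 cells, against 7.86 and 7.89 in shControl cells. The arrays of each group were close together and the groups were well apart. Its log2 difference was -1.13, or 2.19-fold, with values over array pairs from -1.18 to -1.08. BAG3 had been placed in the class with basal expression, and its difference lay closer to that of HSPA6 than to those of the other 4 genes of its class.

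Those 4 genes lay between -0.45 and 0.25. HSPB1 encodes HSP27, a small heat shock protein that holds unfolded clients, and had 9.23 and 9.49 in shYTHDF3 cells, against 9.71 and 9.91 in shControl cells. The groups did not overlap, but the gap between the nearest arrays was only -0.22 on the log2 scale, and the difference of means was -0.45. HSPH1 encodes HSP110, a nucleotide exchange factor of HSP70. It had 9.74 and 9.62 in shYTHDF3 cells, against 10.02 and 9.90 in shControl cells, a difference of -0.28 without overlap.

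STIP1 encodes HOP, which links HSP70 to HSP90. It had 8.19 and 7.86 in shYTHDF3 cells, against 7.80 and 7.74 in shControl cells. The difference of 0.25 was in the opposite direction, and the nearest arrays of the groups were only 0.06 apart. HSPD1 encodes the mitochondrial chaperonin HSP60. It had 9.08 and 8.89 in shYTHDF3 cells, against 8.89 and 8.79 in shControl cells, and the groups touched, with a difference of 0.14.

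The constitutive genes were on either side of 0. HSPA4 encodes an HSP110-type exchange factor of the cytosol and had 9.67 and 9.45 in shYTHDF3 cells, against 9.41 and 9.18 in shControl cells. Its difference was 0.26, with the nearest arrays 0.04 apart. HSPA1L had 4.72 and 4.63 in shYTHDF3 cells, against 4.68 and 5.23 in shControl cells. The groups overlapped, and the difference of -0.28 rested on shControl replicate 2, without which it was -0.0041. Its 5 probe sets, of which 3 held identical values, had differences between -0.28 and -0.13. HSPA1L and its neighbour HSPA1A, whose promoter windows overlap, thus had differences of -0.28 and -2.75 on their probe sets of highest mean. On the shControl arrays the HSPA1L probe sets lay between 3.69 and 5.23, toward the array medians of 3.20 to 3.22. Weak signals are compressed there, so a fall of HSPA1L can be understated.

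**Figure D3:**
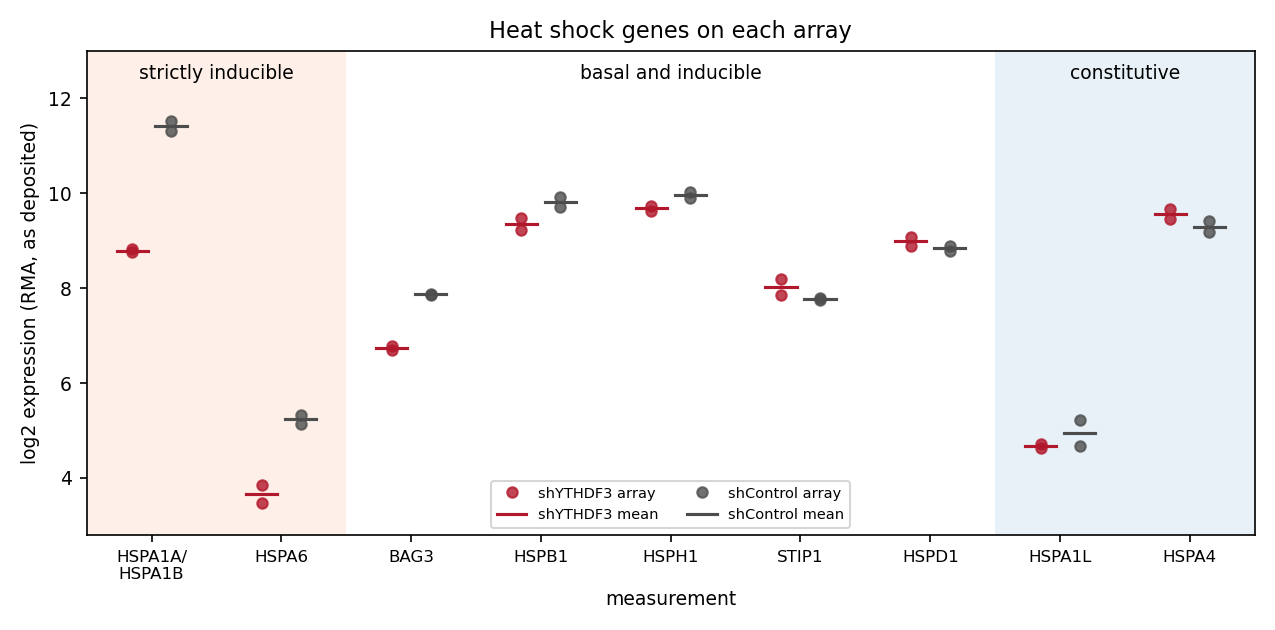
Log2 expression of the 9 measurements on each of the 4 arrays (points), with group means (bars), shYTHDF3 left of shControl. The shYTHDF3 arrays lie clearly below the shControl arrays for HSPA1A/HSPA1B, HSPA6 and BAG3, whereas the means of the rest differ by 0.14 to 0.45 in either direction.

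Set side by side, the order of the differences was HSPA1A/HSPA1B, HSPA6, BAG3, HSPB1, HSPA1L, HSPH1, HSPD1, STIP1 and HSPA4. The differences of HSPA1L and HSPH1 were the same to 2 decimals, and those of STIP1 and HSPA4 were closer than the spread between replicates of either gene. The range over array pairs did not overlap between HSPA1A/HSPA1B (-2.75 to -2.49) and HSPA6 (-1.85 to -1.28), nor between HSPA6 and BAG3 (-1.18 to -1.08). For the comparison between classes, the mean of HSPA1A/HSPA1B and HSPA6 minus the mean of HSPA1L and HSPA4 was taken on each array. It was -1.05 and -0.73 on the shYTHDF3 arrays, against 1.18 and 1.21 on the shControl arrays. Its sign on an array has no meaning because probe sets differ in brightness, but between the groups it differed by -2.09 on the log2 scale. The strictly inducible mean differed by -2.09 between the groups. The constitutive mean differed by -0.01, because the dim HSPA1L, at -0.28, and HSPA4, at 0.26, cancelled out.

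For scale, the same differences were placed among all 12755 genes that passed the filter, whose median was 0.0040. The median over the 9 measurements was -0.28. A difference as low as that of HSPA1A/HSPA1B was found for 6 genes, HSPA1A included, as low as that of HSPA6 for 26 and as low as that of BAG3 for 57. The difference of HSPB1 was matched or exceeded downwards by 651 genes. At least 1 lower on the log2 scale were 3 of the 9 measurements, and 0.604% of all tested genes. Groups that did not overlap were found for 5 measurements in the lower direction, against 22.8% of tested genes, and for 2 in the higher direction, against 22.6%. The genes were chosen on this contrast, so these counts support nothing further.

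The rest of the chaperone network was taken as whole families. Of 147 further genes listed, 57 were named and 51 passed the filter and were tested with limma, adjusted over all 12755 genes. Of these 1 fell, 0 rose and 50 did not pass. Of all tested genes 0.753% were called, 85 lower and 11 higher. At that share, a count of 0 in a short list does not set the list apart from all genes. At an unadjusted p under 0.05 from limma, 2 of the 51 were lower (HYOU1 and DEDD2) and 4 higher (UNC45A, PTGES3, BAG5 and MRPL18). Lists without these genes had 0 at that level. Of all 12755 tested genes 1082 were lower and 796 higher at it, so the network counts are not read as a result. The median difference of the 51 was 0.06, and 48 of them lay within 0.5 of 0, as did 11968 of all 12755 tested genes. The J-domain cochaperones (0 of 47 named), HSPA5, HSPA8, the HSP90 genes themselves and the subunits of the chaperonin TRiC were not analysed here, so the inducible members among them have no value.

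The gene that fell was HYOU1, which encodes an HSP110-type chaperone of the endoplasmic reticulum. It had 9.49 and 9.42 in shYTHDF3 cells, against 10.25 and 10.48 in shControl cells. The groups did not overlap, and the log2 difference was -0.91 (SE 0.14, 1.88-fold, adjusted p = 0.046 from limma). This call was lost without any 1 of the 4 arrays, at adjusted p-values of 0.17 to 0.33 from limma, although the difference stayed between -1.02 and -0.79. It was also lost with a replicate block, at the same difference of -0.91 and an adjusted p of 0.17. A second probe set of HYOU1, of lower signal, had a difference of -0.16. Among the other 5 tested exchange factors and BAG proteins 0 passed, against 0.753% of all tested genes called. BAG5 and BAG1, relatives of BAG3 that also release nucleotide from HSP70, had differences of 0.32 and 0.17, and HSPA4L, another cytosolic HSP110, had 0.14.

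Among heat shock factors and proteins that bind them, 0 of 5 passed at the transcript level, against 0.753% of all tested genes called. Their median was 0.01. The 3 factors among them were HSF1, HSF4 and HSF5. HSF1 had 6.71 and 6.73 in shYTHDF3 cells, against 6.60 and 6.81 in shControl cells. The shYTHDF3 values lay between the control values, and the difference was 0.01 (95% interval -0.31 to 0.33, adjusted p = 0.99 from limma). HSF1 is activated mainly as a protein, which the arrays did not measure. HSF4, a factor active in the lens, had -0.38 on its probe set of higher signal and 0.37 on the other, and the value of higher signal was -0.02 without shControl replicate 2. HSBP1, which binds the HSF1 trimer, and HSF5 had 0.13 and 0.14.

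The list of other genes widely known to be heat-induced held 26, of which 16 were not analysed, DNAJB1, HSPA8 and HSP90AA1 among them. Of the 10 tested 0 passed, against 0.753% of all tested genes called, and their median was -0.06. DEDD2, a protein with a death effector domain, was the lowest of them. It had 6.24 and 5.90 in shYTHDF3 cells, against 6.69 and 6.74 in shControl cells. The groups did not overlap, but the difference of -0.65 (SE 0.15) did not pass, at an adjusted p of 0.13 from limma. PTGES3, the HSP90 cochaperone p23, and MRPL18, a mitochondrial ribosomal protein with a heat-induced cytosolic form, had 0.38 and 0.32 without passing. A second probe set of PTGES3 had a difference of 1.43, and the mean of both had 0.90 and passed, at an adjusted p of 0.04996 from limma.

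The list of HSP90 proteins and cochaperones, in which TRAP1 is the 1 tested HSP90, had 0 of 11 passing, with a median of 0.02. Each count of passing genes in this paragraph stands against 0.753% of all tested genes called. UNC45A, a chaperone of myosin, had 0.53 (adjusted p = 0.22 from limma), and CDC37L1, a relative of the kinase cochaperone CDC37, had -0.30. The other HSP70 proteins had 0 of 5 passing and a median of 0.06. HSPA14, a ribosome-associated HSP70, stood at 0.36, HSPA12B at 0.16 and HSPA2, a testis-enriched HSP70, at -0.09. The signal of HSPA12B was below the array medians, averaging 3.18 in shYTHDF3 and 3.02 in shControl cells. Without shControl replicate 2 HSPA2 was at 0.02. Mitochondrial chaperones and proteases had 0 of 8 passing and a median of 0.12, led by the proteases SPG7 (0.23) and HTRA2 (0.16) and the mitochondrial HSP90 TRAP1 (0.15, but 0.01 without shControl replicate 1).

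Of the list of TRiC and prefoldin 6 genes were tested, all of prefoldin, which hands nascent proteins to TRiC, and 0 passed. The counts of passing genes here, too, stand against 0.753% of all tested genes called. Their median was 0.05, with PFDN2 at -0.15, VBP1 at 0.16 and PFDN5 at 0.16. PFDN5 was at -0.08 without shControl replicate 1, and VBP1 at 0.03 without shControl replicate 2. Among small heat shock proteins other than HSPB1, only HSPB8, a partner of BAG3, was tested, and it had -0.15 at a level close to the filter. Metallothioneins, metal-binding proteins induced by metals and oxidants, had 0 of 6 passing and a median of 0.14. MT4, MT1E and MT3 had 0.27, 0.35 and 0.14. They were named for their smallest p, and over all 6 the differences ran from -0.0022 to 0.35. The groups overlapped for MT1E, and its difference was 0.07 without shYTHDF3 replicate 1.

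**Figure D4:**
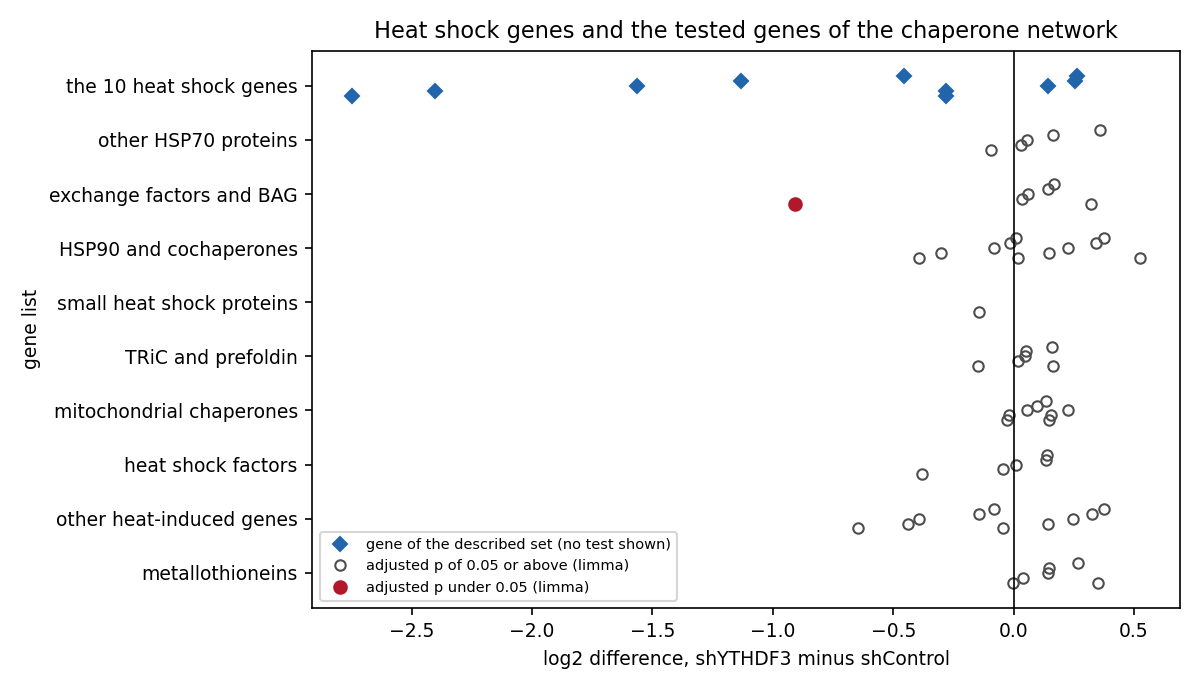
Log2 difference, shYTHDF3 minus shControl, for the 10 heat shock genes (diamonds, chosen on this contrast and shown without a test) and for the tested genes of each further list (circles, some genes stand in 2 lists). The filled circle is HYOU1, the only 1 of the 51 further genes past limma's threshold. Within 0.5 of 0 lie 48 of the 51, and 11968 of all 12755 tested genes.

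Tested genes outside the set were compared with HSPA1A/HSPA1B by their mean-centred values over the 4 arrays, passing over symbols that begin with LOC. The 5 nearest by Euclidean distance on the log2 scale were SDF2L1 (0.25), SESN2 (0.27), KRTAP4-8 (0.35), TMEM50B (0.46) and DDIT4 (0.51). SDF2L1, a chaperone component of the endoplasmic reticulum, had 5.30 and 5.28 in shYTHDF3 cells, against 8.04 and 8.27 in shControl cells. SESN2 and DDIT4, stress-induced inhibitors of mTORC1, had log2 differences of -2.56 and -2.14. With 4 arrays in 2 groups this likeness reflects little more than the size of the group difference.

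Arrays of the same group were slightly more alike than arrays of different groups. The correlation over the tested genes was 0.992 within each group and 0.986 to 0.987 between groups. Of the markers of MDA-MB-231 and mesenchymal cells, 4 of 5 were named and all 4 were above the filter, and their summed log2 level was 35.0 to 35.3 in shYTHDF3 and 36.5 to 36.7 in shControl arrays. FN1, fibronectin, was the only 1 of these 4 that fell (-1.50, adjusted p = 0.012 from limma), while VIM, CD44 and AXL had 0.05, 0.17 and -0.18 without passing. Of the luminal and epithelial markers, 6 of 7 were named, with sums of 29.8 to 30.3 in shYTHDF3 and 29.6 in both shControl arrays. KRT18, a simple epithelial keratin, averaged 8.96 in shYTHDF3 and 8.45 in shControl cells, a difference of 0.50 that did not pass (adjusted p = 0.22 from limma), and EPCAM averaged 6.70 in both groups. KRT8 and GATA3 had differences of -0.11 and 0.03. The oestrogen and progesterone receptor genes ESR1 and PGR lay near the filter value of 2.54, at 2.91 and 2.68 in shYTHDF3 and 2.84 and 2.66 in shControl cells. Of 5 leukocyte markers 2 were named, CD14 and LYZ, summing to 4.90 to 5.35 in shYTHDF3 and 4.95 to 5.23 in shControl arrays, PTPRC among the rest not being analysed here. Of 5 fibroblast and endothelial markers 2 were named, DCN and PECAM1, summing to 4.29 to 4.98 in shYTHDF3 and 4.36 to 4.85 in shControl arrays. The members of both sums lay near or below the filter value. The part of these markers in the heat shock differences was not tested.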

How the data were processed

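The table that the authors deposited holds log2 values of 53617 probe sets on 4 arrays. Per the submitters' processing notes they used RMA, a method of background correction, normalization between arrays and probe summary whose settings no label states. It compresses weak signals and removes array-wide shifts. Values ran from 1.08 to 14.04, and no detection calls were used. The number of arrays limits the precision.

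Groups and replicate numbers came from the sample titles. Probe sets were named by the platform annotation, with symbols updated through Entrez identifiers in RefSeq, which left 16098 with 1 gene symbol. The fit took the probe set of highest mean per gene and kept genes whose mean reached the 30th percentile of all rows (2.54 on the log2 scale). Groups were compared in R 4.3.3 by the 2-sided moderated test of limma 3.58.1 without covariates, with Benjamini-Hochberg adjustment over 12755 genes at 0.05. It had 2 residual and 5.30 prior degrees of freedom. It was also run on simulated data, whose variances were drawn from its own fitted model. That run cannot show whether the calls here are stable. A permutation of 2 against 2 arrays cannot go below p = 0.333. HSPA1A/HSPA1B is the mean of 10 probe sets, and other members are given by their brightest one.

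The members, classes and further gene lists were chosen with earlier results of these data known. Named genes were all members, every further gene past the threshold, up to 3 others of smallest p per list, and the 5 nearest profiles. Symbols that begin with LOC were passed over for the profiles. HSF1 falls outside this rule and was named after its values were seen. Motifs were searched in RefSeq promoter windows of build GRCh38.p14, and windows were aligned with Biopython 1.88. Alternatives covered the filter, probe set rule, normalization, variance model, replicate block, threshold and left-out arrays.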

Additional observations from a re-analysis of the deposited data

How the results depend on the processing

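The log2 difference of HSPA1A/HSPA1B kept its direction under all 10 alternatives, between -2.72 and -2.40. Leaving out 1 array could not change that direction, because the groups did not overlap. The mean of all probe sets of a gene was the main value itself. It was -2.40 with the probe set of highest mean in place of the mean of 10. It ran from -2.72 to -2.52 with 1 array left out, and was -2.59 with distinct profiles only, an alternative chosen after seeing the data. The difference between strictly inducible and constitutive genes ran from -2.24 to -1.93 over its 10 alternatives, the same range as with 1 array left out. The other members kept their sign under 8 alternatives each. Leaving out 1 array could change the sign only where the groups overlapped, for HSPD1 and HSPA1L. For members other than HSPA1L, which have 1 probe set each, the mean of probe sets was the main value. With 1 array left out HSPA6 ran from -1.75 to -1.38 and BAG3 from -1.17 to -1.09. The small differences moved more, STIP1 from 0.09 (without shYTHDF3 replicate 1) to 0.42, HSPD1 from 0.05 (without shYTHDF3 replicate 1) to 0.24, HSPA4 from 0.15 (without shControl replicate 2) to 0.38 and HSPA1L from -0.56 to -0.0041 (without shControl replicate 2). Of the 25 named network genes, HSPA2 and PFDN5 changed sign with 1 array left out.

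Limma called 96 genes, 85 lower and 11 higher. The count was 167 with the filter at the 50th percentile, 375 with an intensity trend in the variance, 250 at a threshold of 0.10 and 26 at 0.01. With 1 array left out it ran from 0 to 36, being 0 without either shControl array, 36 without shYTHDF3 replicate 1 and 35 without shYTHDF3 replicate 2. A replicate block gave 11. Deviations of same-numbered arrays correlated at 0.04, and nothing in the labels ties the numbers to a shared day or culture. Of the further network genes 1 was called (HYOU1). The number was 0 without a filter, 0 at a threshold of 0.01 and 0 with the replicate block. The HYOU1 call was also lost with each of the arrays left out in turn. At an unadjusted p under 0.05 from limma there were 6 network genes without a filter and 8 with the block. Of all genes in those fits, 2011 and 1804 reached that level. The number called was 2 with every named probe set tested separately, where PTGES3 joined, and 2 with an intensity trend, where DEDD2 joined. HYOU1 also lost its call with the mean of its probe sets (-0.53, adjusted p = 0.22 from limma). With any 1 array left out, 1 residual degree of freedom is left and the lone array of its group is assumed to vary like the others. The cause of these changes was not tested.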

Other observations

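Probe sets of 1 gene did not always move together in the chaperone network. PTGES3, the HSP90 cochaperone p23, had a second, dimmer probe set with 7.11 and 7.28 on the shYTHDF3 arrays, against 5.45 and 6.09 on the shControl arrays. That difference of 1.43 compares with 0.38 on the brighter probe set. With the mean of both, limma gave a difference of 0.90.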
